A study of Homo sapiens with 12 samples.

Results

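The extracellular matrix is described here through 51 genes, of 60107 gene identifiers counted, that encode collagens, laminins, matrix glycoproteins, proteoglycans and the enzymes that modify or cut them. The members were listed by symbol, with earlier results of these data known, and each symbol was matched to 1 Ensembl identifier. The libraries hold counts of the 3′ ends of polyadenylated transcripts, from cells labelled U251P and U251T; U251 is an established human glioblastoma line, and what the letters P and T stand for is not stated in the labels. The study asked which genes change when carmofur, a fluorouracil derivative that inhibits acid ceramidase, is given to cells whose migration is of interest. Each of the 4 groups had 3 libraries: U251P with DMSO vehicle, U251P with carmofur, U251T with DMSO vehicle and U251T with carmofur. In all 4 groups the cells adhered, went without serum for 16 h and then had full medium with 10% FBS, epidermal growth factor and basic fibroblast growth factor for 24 h, and DMSO or carmofur was in that medium by the labels. The study's own description also puts DMSO or carmofur in the serum-free hours, so how long the cells were exposed is not settled. The labels number the libraries 1 to 3 but do not say that they came from separate cultures, and the study's methods speak of biological replicates only for its experiments in general, so p-values measure the spread between these libraries, which may be technical.

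Fibrillar collagens assemble into fibres outside the cell, and type IV collagen with laminins, nidogens and perlecan forms the sheets called basement membranes. Collagen chains are hydroxylated and folded in the endoplasmic reticulum, crosslinked outside by lysyl oxidases, and cut by matrix metalloproteinases that the TIMP proteins inhibit. Glioma cells secrete matrix of their own and attach to it through integrins, and this attachment is part of how they move through brain tissue.

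The libraries labelled U251T stood apart from those labelled U251P before any matrix gene was considered. Total counts were 5064504, 3295045 and 5263645 in the U251P vehicle libraries and 6350873, 5952838 and 4144841 in U251P with carmofur, against 1300727, 2817379 and 566061 in the U251T vehicle libraries and 969763, 1078340 and 383633 in U251T with carmofur. Genes of the mitochondrial genome took 19.5% to 26.2% of the counts in the 6 U251P libraries and 0.35% to 0.88% in the 6 U251T libraries. Processed pseudogenes took 0.14% to 0.17% in U251P and 8.51% to 9.41% in U251T, with no overlap. Of 33 genes that most human cells express, 6 were higher and 21 lower in U251T in vehicle, with a median log2 fold change of -1.58, against 39.3% higher and 47.6% lower of all genes tested, and 3 of the 33 passed the filter on low counts through 1 line alone. EEF2, a factor of translation, had 7827, 4678 and 6925 counts in U251P and 80, 138 and 38 in U251T, and GPI, an enzyme of glycolysis, had 1975, 1302 and 2263 and 27, 60 and 13. LDHA, which makes lactate, went the other way, from 28, 26 and 34 to 572, 1171 and 210 counts, and so did RAB7A of late endosomes (1.35 ± 0.15, adjusted p = 1.13e-09).

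**Figure D1:**
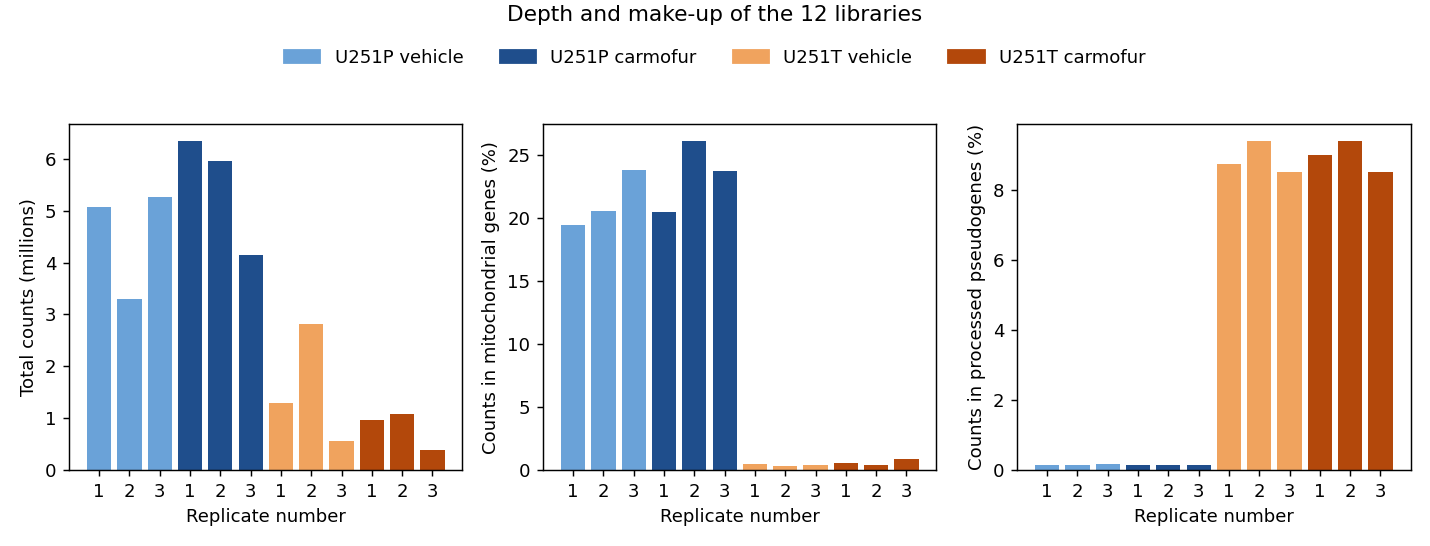
Total counts, the share of counts in genes of the mitochondrial genome and the share in processed pseudogenes, as 1 bar for each of the 12 libraries, coloured by group. The 6 U251T libraries have the lower totals, mitochondrial shares of at most 0.88% and pseudogene shares of at least 8.51%.

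Markers of glioma and astrocytes gave a mixed picture in the U251T libraries. The 15 listed genes summed to 5869.5, 6563 and 5248 CPM (a gene's counts over the library's total count, times 1e6) in U251P vehicle and 14573, 12117 and 14454 CPM in U251T vehicle, where most of it was VIM, the intermediate filament of mesenchymal cells. 2 of 12 tested markers were higher in U251T and 8 lower, and 8 of the 12 were tested only through 1 line. GFAP, the astrocyte filament, had 0, 1 and 0 counts in U251P and 102, 154 and 47 in U251T, whereas the stem cell filament NES had 1904, 1512 and 2051 and 2, 1 and 0, and ALDH1A3 had 4629, 3670 and 4804 and 1, 0 and 0. S100B, SOX2, CHI3L1, AQP4 and AQP1 were at 0 counts in all 3 U251T vehicle libraries, and CHI3L1 and AQP4 were also at 0 in U251P vehicle. Of the fibroblast list, which shares COL1A1, COL1A2, COL3A1, DCN and LUM with the 51 members, 8 of 10 tested genes were higher in U251T, 5 of the 10 tested only through 1 line and so bound to differ, its sum was 234, 217 and 244 CPM in U251P and 2459, 2684 and 2825 CPM in U251T, and its most abundant gene in U251T was COL1A1. THY1, a fibroblast surface protein, had 566, 327 and 614 counts in U251P and 0, 0 and 0 in U251T. PI16 and LUM were at 0 in the vehicle libraries of both lines. THY1 and PDGFRA were the 2 lower of the 10 tested. PDGFRA had 297, 176 and 273 counts in U251P and 29, 50 and 11 in U251T. TWIST1 was among the higher, from 53, 31 and 49 to 354, 887 and 195 counts. FAP also rose, from 0, 1 and 1 to 39, 41 and 16 counts. What these differences reflect, and whether these libraries hold the human line that the label names, was not tested. A gene near 0 in the U251T libraries cannot be told apart from a gene whose transcripts were not counted against this annotation, and a difference between the lines cannot be told apart from a difference between these sets of libraries.

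Comparisons of the lines and of carmofur in U251T rest on these libraries, and the comparison of carmofur with vehicle in U251P does without them. Together the 51 members took 0.421%, 0.513% and 0.443% of the counts in U251P vehicle, 0.455%, 0.495% and 0.477% in U251P with carmofur, 0.944%, 0.785% and 1.03% in U251T vehicle, and 1.504%, 1.39% and 1.57% in U251T with carmofur. The U251P groups overlapped, and every U251T carmofur library lay above every U251T vehicle library. In bulk RNA, more cells of a kind and more RNA per cell cannot be told apart, here and in all that follows.

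Between the lines in vehicle, 4 of 5 fibrillar collagens and both fibrillins were higher in the U251T libraries, and the laminins, lysyl hydroxylases and lysyl oxidase-like enzymes listed were lower. Of these, COL3A1, LAMA4, LAMA5, PLOD1, PLOD3, LOXL1 and LOXL2 passed the filter through U251P or U251T alone, which fixed their direction. All 47 members that passed the filter on low counts had an adjusted p under 0.05 (edgeR, quasi-likelihood test), 23 higher and 24 lower in U251T. Over all 12047 genes tested, 39.3% were higher and 47.6% lower, so a call in this comparison was the usual outcome, and nothing is read from the number of members called. POSTN, BGN, LUM and TIMP3 did not pass the filter. Of the 47 members, 31 reached the filter's level in every vehicle library of both lines, 11 reached it through U251P alone (COL4A2, COL6A2, LAMA4, LAMA5, FBLN1, TGFBI, VCAN, PLOD1, PLOD3, LOXL1 and LOXL2) and 5 through U251T alone (COL3A1, COL6A3, NID2, THBS2 and DCN). These 16 had to be higher in the line that passed them to be tested at all. Their values are given below as a description, with no p-value. Their standard errors (SE) came from the F statistic of the test. Where a group had few counts, such an SE can be smaller than counting error alone allows. Among the 31 that reached it in both, 18 were higher and 13 lower. The median log2 fold change was -0.49 over the 47 members, also with genes of an all-0 group at their bound, and -0.33 over all genes tested. These medians depend on the filter: with at least 10 counts asked of every library they were 0.49 over 26 members and 0.01 over all genes tested, and with no filter -0.45 and -1.54. Fold changes depend on the scaling too. Over the genes tested in both fits, the median of the gene-wise shifts was -0.63 with that stricter filter, -0.36 with no filter, -0.25 with the mitochondrial genes left out and -0.15 with the DESeq2 size factors. With the stricter filter COL1A1 was at 7.43 in place of 8.06 and COL5A2 at 0.66 in place of 1.30.

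**Figure D2:**
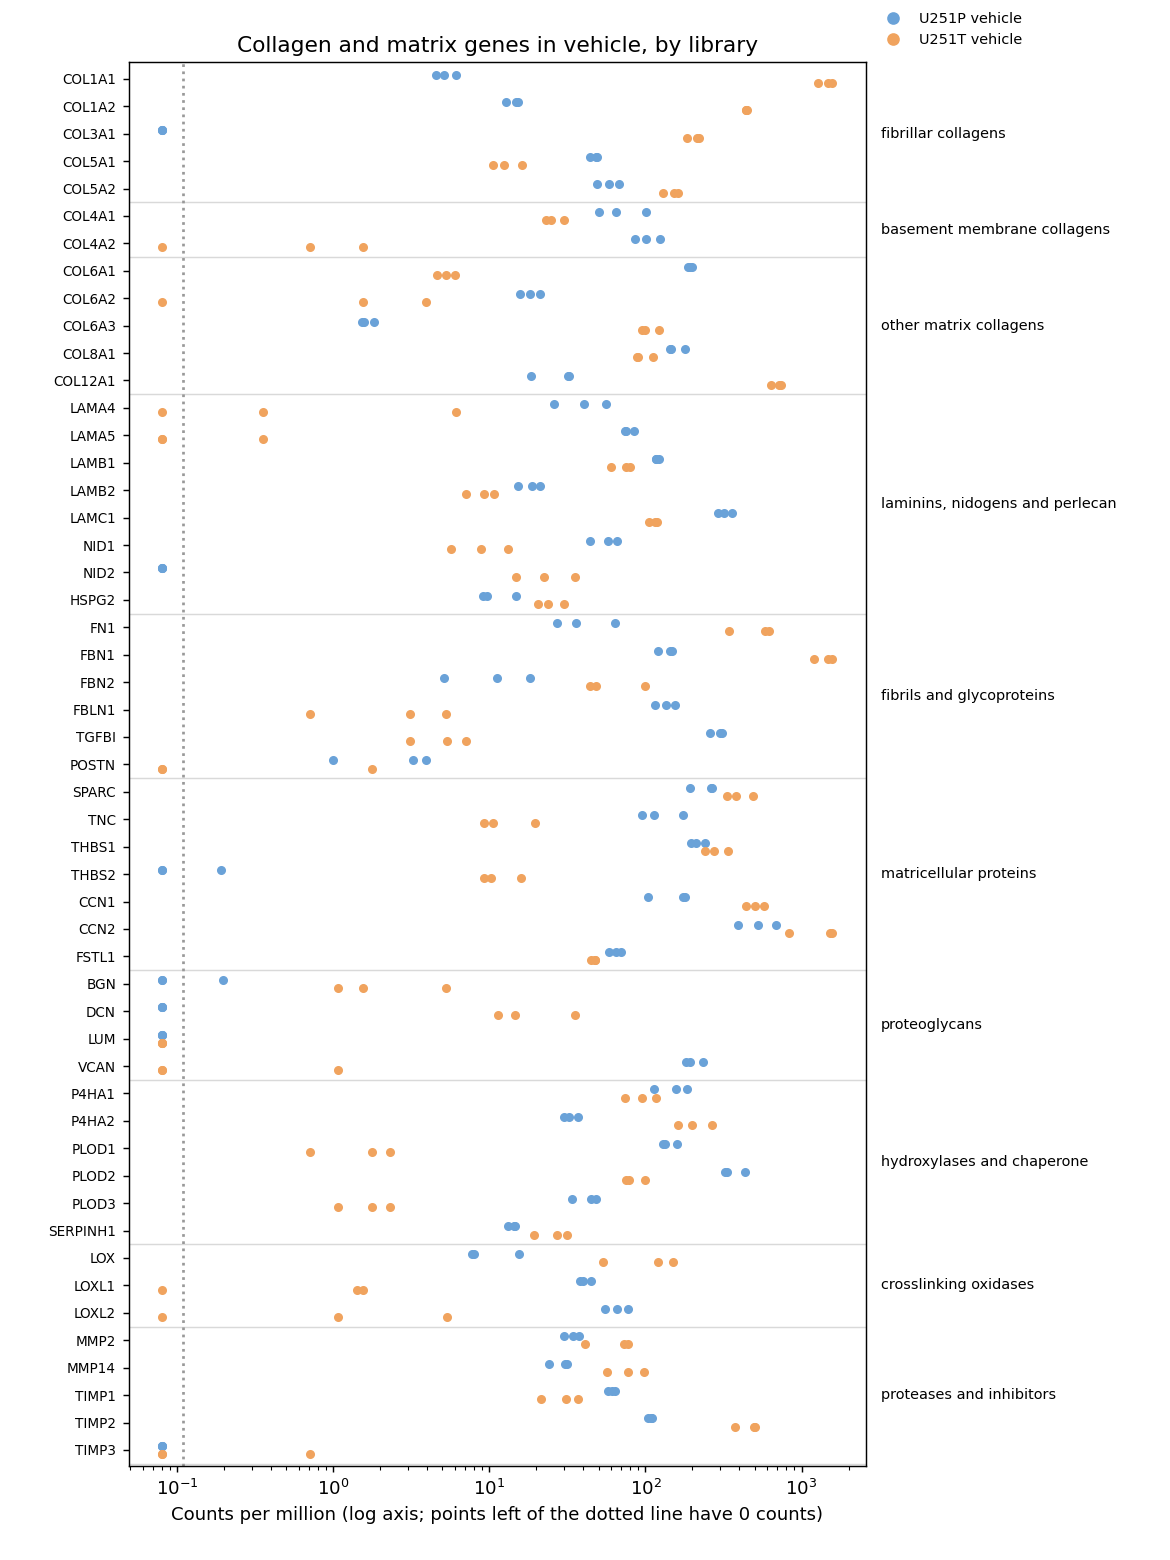
CPM on a log axis of each of the 51 members in the 3 U251P and 3 U251T vehicle libraries, 1 point for each library, grouped by role, with libraries at 0 counts left of the dotted line. COL1A1 lies at 4.54, 6.07 and 5.13 CPM in U251P and 1282, 1472 and 1565 CPM in U251T, while VCAN, PLOD1 and LAMA5 lie far to the right in U251P and had at most 3 counts in any U251T library.

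Of the 5 fibrillar collagens, 4 were higher in U251T and 1 was lower. COL3A1 reached the filter's level through U251T alone and could only be higher. COL1A1, a chain of type I collagen, the main collagen of connective tissue, was at 4.54, 6.07 and 5.13 CPM in the U251P vehicle libraries and 1282, 1472 and 1565 CPM in the U251T vehicle libraries (log2 fold change 8.06 ± 0.21 (SE), adjusted p = 3.52e-23). COL1A2, the other chain of the same molecule, was at 15.2, 12.7 and 14.8 CPM in the U251P vehicle libraries and 442, 446 and 443 CPM in the U251T vehicle libraries (log2 fold change 4.90 ± 0.17 (SE), adjusted p = 4.86e-21). For both genes the libraries of the 2 lines were far apart and those of 1 line close together. Within a library, COL1A1 counts divided by COL1A2 counts gave 0.299, 0.476 and 0.346 in U251P vehicle and 2.90, 3.30 and 3.53 in U251T vehicle. COL3A1, the chain of type III collagen that lies beside type I in elastic tissues, had 0 counts in each U251P vehicle library and 277, 518 and 124 counts, or 213, 184 and 219 CPM, in U251T vehicle. Set against a floor of 3 counts over the group, it was at least 891-fold higher in U251T. Type V collagen, which sets fibre thickness, was split: the log2 fold change was -1.85 for COL5A1 and 1.30 for COL5A2, each with libraries that did not overlap.

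Both chains of type IV collagen, the network of basement membranes, were lower in U251T, to unequal degrees. COL4A2 reached the filter's level through U251P alone and could only be lower. COL4A1 was at 50.5, 101 and 65.0 CPM in U251P and 23.1, 24.8 and 30.03 CPM in U251T (log2 fold change -1.52 ± 0.23 (SE), adjusted p = 5.27e-07). COL4A2 fell from 85.3, 125 and 101 CPM, or 432, 411 and 531 counts, to 2, 2 and 0 counts (log2 fold change -6.86 ± 0.36 (SE)). The genes lie head to head on chromosome 13 with 126 bases between their RefSeq starts. Their libraries did not overlap between the lines, and the COL4A1 count was 0.593, 0.810 and 0.644 times the COL4A2 count in U251P, against 15.0 and 35 in the U251T libraries that had any COL4A2 count.

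Among the other collagens, type VI was split in the same way. COL6A1, a chain of the beaded filaments of type VI collagen, was at 187, 192 and 197 CPM in the U251P vehicle libraries and 4.61, 6.03 and 5.30 CPM in the U251T vehicle libraries (log2 fold change -5.13 ± 0.23 (SE), adjusted p = 2.03e-18). COL6A3, the longest chain of those filaments, was at 1.58, 1.82 and 1.52 CPM in the U251P vehicle libraries and 94.6, 121 and 98.9 CPM in the U251T vehicle libraries (log2 fold change 5.97 ± 0.26 (SE)). So in U251P the COL6A3 count was low and in U251T that of COL6A1, with no overlap in either; COL6A2 had a log2 fold change of -2.78, and of -4.21 without U251T replicate 2. COL12A1, a collagen that binds to the surface of type I fibres, was at 18.4, 32.5 and 31.7 CPM in the U251P vehicle libraries and 719.6, 635 and 742 CPM in the U251T vehicle libraries (log2 fold change 4.62 ± 0.19 (SE), adjusted p = 2.21e-19). COL8A1, a network-forming collagen, had the smallest difference of the group, at -0.76.

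Laminins are trimers of an alpha, a beta and a gamma chain, and all 5 laminin chains listed were lower in U251T. LAMA4 and LAMA5 reached the filter's level through U251P alone and could only be lower. LAMC1, the gamma chain of most laminins, was at 293, 359 and 319.6 CPM in the U251P vehicle libraries and 105, 119 and 115 CPM in the U251T vehicle libraries (log2 fold change -1.55 ± 0.15 (SE), adjusted p = 7.84e-11). LAMB1, a beta chain, was at 117, 117 and 122 CPM in the U251P vehicle libraries and 75.3, 60.0 and 79.5 CPM in the U251T vehicle libraries (log2 fold change -0.81 ± 0.16 (SE), adjusted p = 2.6e-05). The groups did not overlap for either. LAMA5, an alpha chain of adult basement membranes, had 373, 279 and 395 counts in U251P and 0, 1 and 0 in U251T, a 360.0-fold lower level over the summed counts with an exact 95% counting interval of 64.5 to 14233. The nidogens, which tie laminin to type IV collagen, went opposite ways. NID2 had 0 counts in each U251P library and 29, 42 and 20 in U251T, at least 88.2-fold higher against 3 counts over the group, while NID1 had a log2 fold change of -2.75. The remaining log2 fold changes in this role were -4.39 for LAMA4, -0.94 for LAMB2 and 1.01 for HSPG2, the core protein of perlecan, whose call was lost with at least 10 counts asked of every library (0.38, adjusted p = 0.239) and with thinned libraries (0.65, adjusted p = 0.136). LAMA4 had 8, 1 and 0 counts in U251T and a log2 fold change of -6.95 without replicate 1 and -3.43 without replicate 2, and the single LAMA5 count was in replicate 2.

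Fibronectin and the fibrillins were higher in U251T, TGFBI and FBLN1 were lower, and POSTN was not tested. FBN1, which builds the microfibrils that carry elastin, was at 121, 147 and 144 CPM in the U251P vehicle libraries and 1475, 1208 and 1565 CPM in the U251T vehicle libraries (log2 fold change 3.31 ± 0.15 (SE), adjusted p = 8.54e-18). TGFBI, an adhesion protein named for its induction by TGF-beta, was at 259, 307 and 301 CPM in the U251P vehicle libraries and 3.08, 5.32 and 7.07 CPM in the U251T vehicle libraries (log2 fold change -5.89 ± 0.23 (SE)). FBLN1, a fibulin of elastic fibres, fell from 114, 136 and 155 CPM to 4, 2 and 3 counts (log2 fold change -6.10 ± 0.33 (SE)). None of these overlapped between the lines. The log2 fold change was 3.51 for FN1 (fibronectin) and 2.53 for FBN2, and the untested POSTN had 5, 13 and 17 counts in U251P and 0, 0 and 1 in U251T, 12-fold lower with an exact interval of 2.02 to 489, though its libraries overlapped in CPM. Without U251T replicate 2, the log2 fold change was 1.83 for FBN2 and -5.31 for FBLN1.

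Matricellular proteins, which tune adhesion and do not build fibres, had 5 of 7 members higher in U251T. THBS2 reached the filter's level through U251T alone and could only be higher. CCN2, connective tissue growth factor, was at 527, 685 and 391 CPM in the U251P vehicle libraries and 1522, 833 and 1574 CPM in the U251T vehicle libraries (log2 fold change 1.24 ± 0.18 (SE), adjusted p = 2.8e-07). SPARC, a collagen-binding protein, was at 193, 267 and 265 CPM in the U251P vehicle libraries and 382, 335 and 488 CPM in the U251T vehicle libraries (log2 fold change 0.66 ± 0.15 (SE), adjusted p = 0.000226). The groups did not overlap, although U251T replicate 2 lay well below the other U251T libraries for CCN2. THBS2, a thrombospondin, had 0, 0 and 1 counts in U251P and 12, 29 and 9 in U251T, 145-fold higher with an exact interval of 24.9 to 5857. TNC, tenascin-C, an anti-adhesive glycoprotein of developing brain and glioma, was at 95.6, 174 and 114 CPM in the U251P vehicle libraries and 9.23, 19.5 and 10.6 CPM in the U251T vehicle libraries (log2 fold change -3.10 ± 0.25 (SE), adjusted p = 2.18e-12). Without U251P replicate 3, which holds the single THBS2 count of U251P vehicle, the fitted log2 fold change of THBS2 was 7.80 in place of 6.55. For TNC every U251T library lay below every U251P library, and its log2 fold change was -3.87 without U251T replicate 2. The log2 fold changes were 1.70 for CCN1, -0.49 for FSTL1 and 0.32 for THBS1. THBS1 lost its call without any 1 of the 6 libraries, with log2 fold changes of 0.18 to 0.32 and adjusted p of 0.092 to 0.332, and turned to -0.05 with no filter on low counts and to -0.31 with a stricter filter. SPARC lost its call without U251P replicate 1 (0.44, adjusted p = 0.0573), with no filter (0.30) and with the stricter filter (0.03).

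Of the 4 proteoglycans, VCAN had few counts in U251T and DCN none in U251P vehicle. VCAN, the large hyaluronan-binding proteoglycan of brain matrix, was at 192, 234 and 182 CPM in U251P, or 970, 770 and 956 counts, and had 0, 3 and 0 counts in U251T, 309-fold lower with an exact interval of 106 to 1499. DCN, a small leucine-rich proteoglycan that coats collagen fibres, had 0 counts in each U251P vehicle library and 19, 32 and 20 in U251T, at least 68.8-fold higher against 3 counts over the group. BGN, its close relative, had 1, 0 and 0 and 2, 3 and 3 counts (23.3-fold, exact interval 3.12 to 1032), and LUM had none in any of the 12 libraries. All VCAN counts of U251T vehicle were in replicate 2. VCAN was apart on the U251P side and DCN on the U251T side.

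Of the collagen-modifying enzymes, the lysyl hydroxylases were lower in U251T, and the prolyl hydroxylases and the lysyl oxidases were split. PLOD1, PLOD3, LOXL1 and LOXL2 reached the filter's level through U251P alone and could only be lower. PLOD2, a lysyl hydroxylase, was at 323, 434 and 334 CPM in the U251P vehicle libraries and 74.6, 78.1 and 98.9 CPM in the U251T vehicle libraries (log2 fold change -2.18 ± 0.16 (SE), adjusted p = 1.79e-13). PLOD1 fell from 129.7, 133 and 159 CPM to 3, 2 and 1 counts (log2 fold change -6.75 ± 0.32 (SE)), and PLOD3 from 33.6, 44.9 and 47.9 CPM to 3, 3 and 1 counts (log2 fold change -4.79 ± 0.40 (SE)). The groups of all 3 lysyl hydroxylases were apart. P4HA1, a prolyl hydroxylase that stabilises the triple helix, was at 113, 184 and 157 CPM in the U251P vehicle libraries and 118, 73.5 and 95.4 CPM in the U251T vehicle libraries (log2 fold change -0.73 ± 0.18 (SE), adjusted p = 0.000389). Its groups overlapped, since U251T replicate 1 lay above the lowest U251P library. P4HA2 had a log2 fold change of 2.58, and SERPINH1, the collagen chaperone, of 0.94, a call that was lost without U251T replicate 2 (0.62, adjusted p = 0.0664), with thinned libraries (0.72, adjusted p = 0.0826) and with at least 10 counts in every library (0.31, adjusted p = 0.265). Of the crosslinking oxidases, LOXL1 had 201, 126 and 237 counts in U251P and 2, 4 and 0 in U251T (log2 fold change -4.99 ± 0.41 (SE)). LOXL2 had 280, 254 and 348 and 7, 3 and 0 (log2 fold change -4.92 ± 0.37 (SE)). Without U251T replicate 1 or 2 the log2 fold change of LOXL2 was -6.16 or -4.29. LOX itself was higher in U251T, with a log2 fold change of 3.28, and the groups of all 3 oxidases were apart.

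Among the proteases and their inhibitors, 3 were higher and 1 lower. TIMP2, an inhibitor that also takes part in MMP2 activation, was at 110.0, 108 and 104 CPM in the U251P vehicle libraries and 497, 374 and 505 CPM in the U251T vehicle libraries (log2 fold change 2.04 ± 0.14 (SE), adjusted p = 9.21e-14). TIMP1, another inhibitor, was at 61.4, 57.4 and 63.6 CPM in the U251P vehicle libraries and 30.8, 21.3 and 37.1 CPM in the U251T vehicle libraries (log2 fold change -1.19 ± 0.21 (SE), adjusted p = 5.16e-06). MMP14, a membrane-bound protease that activates MMP2, was at 24.1, 31.6 and 30.4 CPM in the U251P vehicle libraries and 77.6, 56.4 and 97.2 CPM in the U251T vehicle libraries (log2 fold change 1.31 ± 0.20 (SE), adjusted p = 6.57e-07). None of the 3 overlapped between the lines. MMP2, the gelatinase, had a log2 fold change of 0.78, which was 0.42 with no filter and 0.15 with at least 10 counts in every library, past the threshold in neither, and TIMP3 had no count in U251P and 0, 2 and 0 in U251T vehicle, too few for a fold.

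Carmofur was compared with vehicle within U251P, and no matrix gene passed the test there. None of the 43 members tested had an adjusted p under 0.05 (edgeR), against 0% of 11426 genes tested. At an unadjusted p under 0.05 there were 4 members, against 3.52% of all genes, and DESeq2 called no gene either, with 2 members at an unadjusted p under 0.05. COL6A1 was at 187, 192 and 197 CPM in vehicle and 265, 261 and 219.8 CPM in carmofur (log2 fold change 0.40 ± 0.10 (SE), adjusted p = 0.999). THBS1, a thrombospondin that activates latent TGF-beta, was at 239.9, 212 and 197 and 295, 357 and 228 CPM (log2 fold change 0.47 ± 0.14 (SE), adjusted p = 0.999). COL6A1 was higher in all 3 carmofur libraries, while the lowest THBS1 carmofur library lay within the vehicle range. MMP2 was at 30.2, 34.3 and 37.6 and 45.2, 40.3 and 41.7 CPM (log2 fold change 0.34 ± 0.14 (SE), adjusted p = 0.999). FSTL1, a secreted follistatin-like glycoprotein, was at 65.2, 69.2 and 58.3 and 76.1, 82.3 and 70.0 CPM (log2 fold change 0.28 ± 0.12 (SE), adjusted p = 0.999). For both, every carmofur library lay above every vehicle library. With no filter on low counts 1 of these passed, THBS1 (adjusted p = 0.0376). In that fit 19 of 24349 genes passed, 3 higher and 16 lower. The other 39 tested members had log2 fold changes of -0.54 to 0.29, and for 22 of the 43 the whole 95% confidence interval lay between -0.5 and 0.5. The 8 untested members were COL3A1, COL6A3, NID2, THBS2, BGN, DCN, LUM and TIMP3, and none of them exceeded 11 counts in any U251P library.

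In U251T, carmofur was followed by higher levels of matrix genes across most roles. Of 35 members tested, 16 were higher and 1 lower at an adjusted p under 0.05, against 8.88% of 7204 genes tested higher and 8.20% lower. The members were chosen with earlier results of these data known, so these counts are not independent of the data. The members' median log2 fold change was 0.52, and that of all genes tested was 0.01. Vehicle libraries of U251T serve both here and in the comparison of the lines, so the values are given side by side and not related to each other. The median library total was 969763 with carmofur and 1300727 with vehicle, and the totals of the 2 groups overlapped. With every library thinned to the smallest total 13 members were higher and 1 lower of 30 tested, against 406 and 420 of 4995 genes tested. Of the 35, 30 reached the filter's level in every library of both groups, and COL5A1, LAMB2, NID1, TNC and THBS2, which did not, had no call. The 16 members with too few counts in U251T to be tested were COL4A2, COL6A1, COL6A2, LAMA4, LAMA5, FBLN1, TGFBI, POSTN, BGN, LUM, VCAN, PLOD1, PLOD3, LOXL1, LOXL2 and TIMP3.

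**Figure D3:**
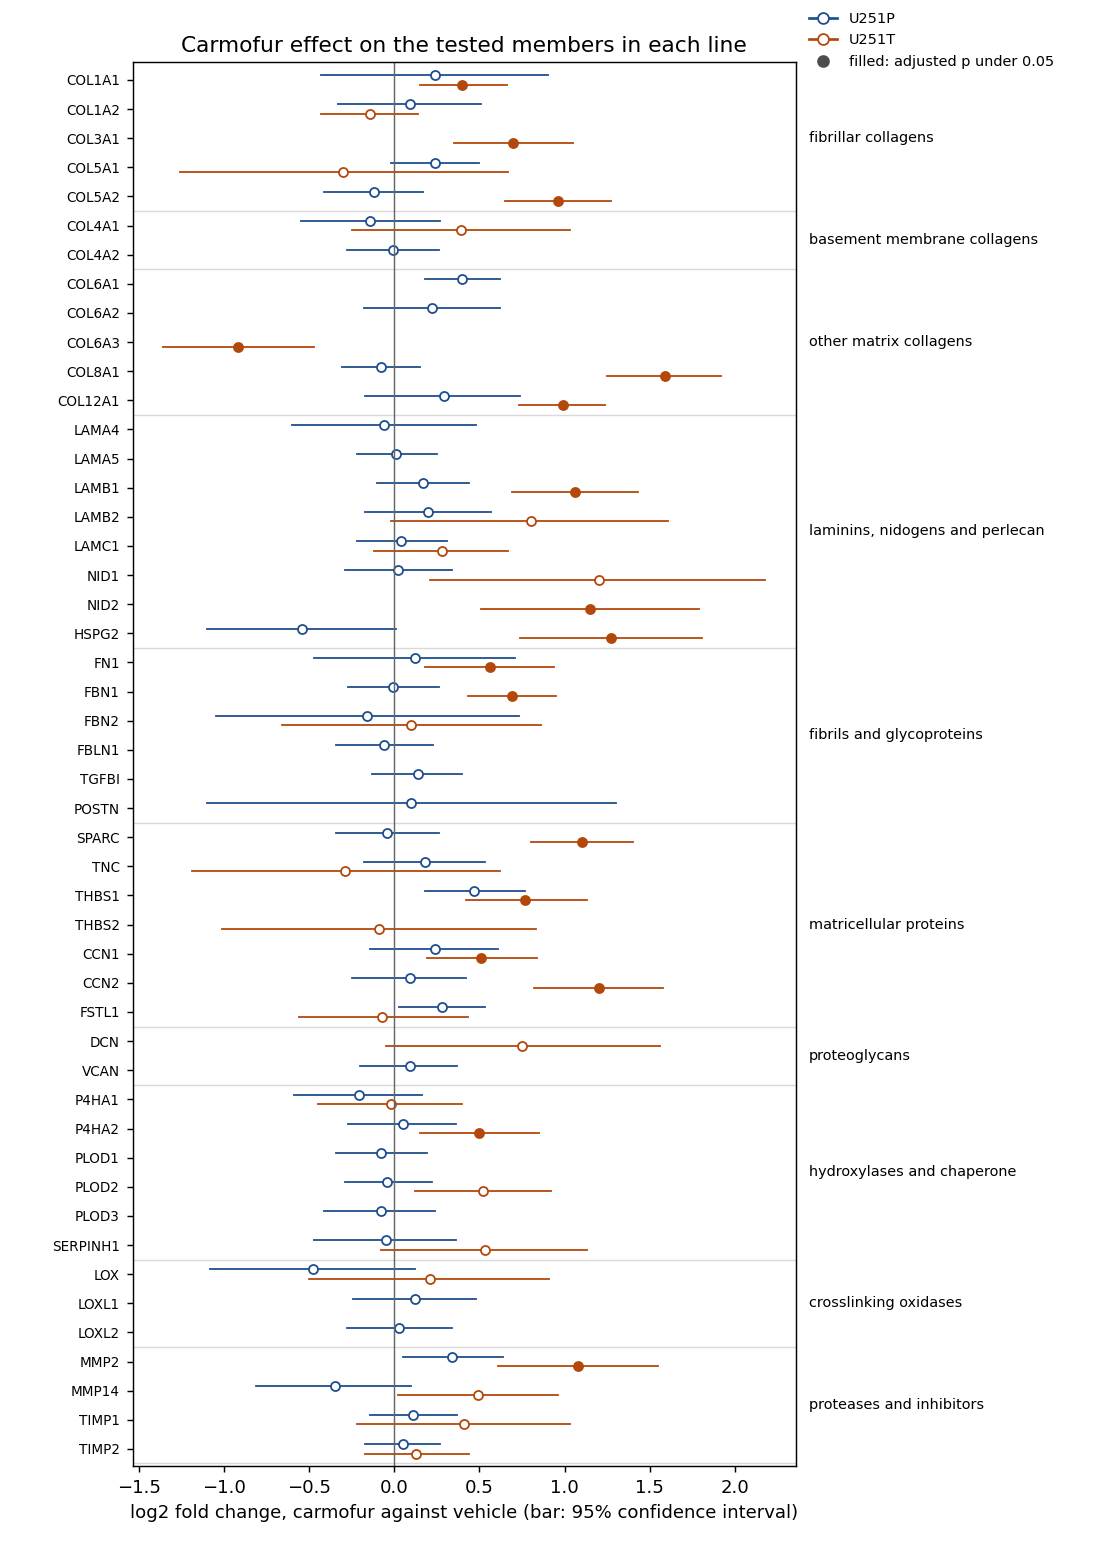
Log2 fold change of carmofur against vehicle for each tested member, grouped by role, in U251P (blue) and U251T (orange), where the bar is the 95% confidence interval and a filled point has an adjusted p under 0.05. The filled points are all in U251T, 16 to the right of 0 and COL6A3 to the left.

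Of the fibrillar collagens, 3 of 5 rose. COL5A2, a chain of type V collagen, was at 161, 130.3 and 152 CPM in vehicle and 279, 305 and 271 CPM in carmofur (log2 fold change 0.96 ± 0.15 (SE), adjusted p = 0.000156). COL3A1 was at 213, 184 and 219 CPM in vehicle and 300.1, 411 and 268 CPM in carmofur (log2 fold change 0.70 ± 0.17 (SE), adjusted p = 0.0063). COL1A1 was at 1282, 1472 and 1565 CPM in vehicle and 1877, 1912 and 1929 CPM in carmofur (log2 fold change 0.40 ± 0.12 (SE), adjusted p = 0.0285). Each carmofur library was above each vehicle library for all 3. COL1A1 lost its call in 4 of the 6 fits that left out 1 library (vehicle replicate 1 or any carmofur replicate, adjusted p up to 0.183), with no filter (0.225), with thinned libraries (0.0671) and with all 12 libraries in 1 fit (0.189), and COL3A1 without carmofur replicate 2 (adjusted p = 0.0696). COL1A2, the partner of COL1A1, was at 442, 446 and 443 CPM in vehicle and 387, 445 and 370.1 CPM in carmofur (log2 fold change -0.14 ± 0.13 (SE), adjusted p = 0.527), so the ratio of COL1A1 to COL1A2 counts was 4.85, 4.30 and 5.21 with carmofur. COL5A1 was at 16.1, 12.4 and 10.6 CPM in vehicle and 7.22, 8.35 and 23.5 CPM in carmofur (log2 fold change -0.30 ± 0.46 (SE), adjusted p = 0.727), with overlapping groups.

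Among the other collagens the calls ran both ways. COL8A1, a short network-forming collagen of vessel walls, was at 88.4, 89.4 and 111 CPM in vehicle and 319, 251.3 and 289 CPM in carmofur (log2 fold change 1.59 ± 0.16 (SE), adjusted p = 2.27e-06). COL12A1 was at 719.6, 635 and 742 CPM in vehicle and 1348, 1345 and 1462 CPM in carmofur (log2 fold change 0.99 ± 0.12 (SE), adjusted p = 1.88e-05). Both were far above the vehicle range in every carmofur library. COL6A3 was at 94.6, 121 and 98.9 CPM in vehicle and 49.5, 55.6 and 70.4 CPM in carmofur (log2 fold change -0.92 ± 0.21 (SE), adjusted p = 0.0053). It was the 1 member that fell, and all of its carmofur libraries were below the vehicle libraries. COL4A1, the tested basement membrane collagen, was at 23.1, 24.8 and 30.03 CPM in vehicle and 24.7, 31.5 and 52.1 CPM in carmofur (log2 fold change 0.39 ± 0.30 (SE), adjusted p = 0.433).

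Basement membrane glycoproteins rose in 3 of 6 tested members. HSPG2, the core of the heparan sulfate proteoglycan perlecan, was at 23.8, 20.6 and 30.03 CPM in vehicle and 49.5, 57.5 and 70.4 CPM in carmofur (log2 fold change 1.27 ± 0.25 (SE), adjusted p = 0.00184). LAMB1 was at 75.3, 60.0 and 79.5 CPM in vehicle and 148, 144 and 149 CPM in carmofur (log2 fold change 1.06 ± 0.18 (SE), adjusted p = 0.000349). NID2 was at 22.3, 14.9 and 35.3 CPM in vehicle and 40.2, 51.9 and 54.7 CPM in carmofur (log2 fold change 1.15 ± 0.30 (SE), adjusted p = 0.013). No carmofur library of these fell within the vehicle range. NID2 lost its call without vehicle replicate 2 (adjusted p = 0.0693), under DESeq2 (0.0545) and with thinned libraries (0.228). For NID1, LAMB2 and LAMC1 the log2 fold changes were 1.2, 0.80 and 0.28, with adjusted p of 0.0897, 0.177 and 0.356.

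Fibronectin and the fibrillin FBN1 rose as well. FBN1 was at 1475, 1208 and 1565 CPM in vehicle and 2233, 2422 and 2182 CPM in carmofur (log2 fold change 0.69 ± 0.12 (SE), adjusted p = 0.000655). FN1, the ligand of many integrins, was at 617, 345 and 583 CPM in vehicle and 812, 592 and 865 CPM in carmofur (log2 fold change 0.56 ± 0.18 (SE), adjusted p = 0.0398). The FBN1 groups were apart, and for FN1 the lowest carmofur library lay within the vehicle range. FN1 lost its call without vehicle replicate 2 or carmofur replicate 1 or 3 (adjusted p up to 0.174), with the stricter filter (0.054) and with all 12 libraries in 1 fit (0.159). FBN2 was at 48.4, 99.0 and 44.2 CPM in vehicle and 67.0, 112 and 23.5 CPM in carmofur (log2 fold change 0.10 ± 0.36 (SE), adjusted p = 0.888), which overlapped.

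Of 7 matricellular members 4 rose. CCN2 was at 1522, 833 and 1574 CPM in vehicle and 3042, 2446 and 3511 CPM in carmofur (log2 fold change 1.2 ± 0.18 (SE), adjusted p = 0.000139). SPARC was at 382, 335 and 488 CPM in vehicle and 884, 892 and 766 CPM in carmofur (log2 fold change 1.10 ± 0.14 (SE), adjusted p = 3.51e-05). THBS1 was at 274, 239.9 and 336 CPM in vehicle and 505, 354 and 597 CPM in carmofur (log2 fold change 0.77 ± 0.17 (SE), adjusted p = 0.00374). In all 3 the carmofur libraries lay above the vehicle libraries. CCN1, a relative of CCN2 that binds integrins, was at 506, 440.1 and 578 CPM in vehicle and 800.2, 545 and 839 CPM in carmofur (log2 fold change 0.51 ± 0.15 (SE), adjusted p = 0.0267). A carmofur library of CCN1 lay within the vehicle range, and its call was lost in 4 of the 6 fits without 1 library (vehicle replicate 1 or 2, carmofur replicate 1 or 3, adjusted p up to 0.137), with no filter (0.069), with thinned libraries (0.0846) and with all 12 libraries in 1 fit (0.112). TNC, THBS2 and FSTL1 had log2 fold changes of -0.29, -0.09 and -0.07, none past the threshold.

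Of the enzymes, proteases and inhibitors tested, 2 rose. MMP2 was at 77.6, 41.2 and 72.4 CPM in vehicle and 138, 111 and 143 CPM in carmofur (log2 fold change 1.08 ± 0.22 (SE), adjusted p = 0.00245). P4HA2, a prolyl hydroxylase, was at 199, 162 and 267 CPM in vehicle and 271, 274 and 328 CPM in carmofur (log2 fold change 0.50 ± 0.17 (SE), adjusted p = 0.0454). The groups were apart for both, yet P4HA2 kept its call in 1 of the 6 fits that left out a library, that without vehicle replicate 3, and lost it under DESeq2 (adjusted p = 0.0961), library size alone (0.0505), no filter (0.135), the stricter filter (0.056) and all 12 libraries in 1 fit (0.0638). PLOD2 and MMP14 had unadjusted p of 0.0132 and 0.0401, with log2 fold changes of 0.52 and 0.49. P4HA1, SERPINH1, LOX, TIMP1 and TIMP2 ranged from -0.02 to 0.53, and DCN, the tested proteoglycan, had a log2 fold change of 0.75 (adjusted p = 0.199). Of the 17 members called in U251T, 11 kept their call without any 1 of the 6 libraries: COL5A2, COL6A3, COL8A1, COL12A1, LAMB1, HSPG2, FBN1, SPARC, THBS1, CCN2 and MMP2.

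The difference between the lines in the carmofur effect was tested over all 12 libraries. Of 49 members tested, 6 had a larger effect in U251T at an adjusted p under 0.05 and 0 a smaller one, against 1.80% and 2.49% of 13070 genes tested. This count, too, is not independent of the data from which the members were chosen. The median interaction was 0.49 over the members and -0.02 over all genes. COL8A1 was at 145, 178 and 145 CPM in vehicle and 138, 151 and 144 CPM in carmofur in U251P, a log2 fold change of -0.08 with a 95% confidence interval of -0.31 to 0.15, and the carmofur effect was 1.60 ± 0.22 (SE) larger on the log2 scale in U251T (interaction, adjusted p = 6.14e-06). HSPG2 was at 9.08, 9.71 and 14.8 CPM in vehicle and 7.87, 8.74 and 6.03 CPM in carmofur in U251P, a log2 fold change of -0.54 with a 95% confidence interval of -1.10 to 0.01, and the carmofur effect was 1.74 ± 0.36 (SE) larger on the log2 scale in U251T (interaction, adjusted p = 0.00206). COL5A2 was at 58.1, 68.0 and 49.0 CPM in vehicle and 60.6, 48.0 and 47.8 CPM in carmofur in U251P, a log2 fold change of -0.12 with a 95% confidence interval of -0.41 to 0.17, and the carmofur effect was 1.03 ± 0.23 (SE) larger on the log2 scale in U251T (interaction, adjusted p = 0.00477). In U251P the carmofur and vehicle libraries of COL8A1 and COL5A2 overlapped and those of HSPG2 lay below the vehicle libraries, whereas all 3 rose in U251T. SPARC was at 193, 267 and 265 CPM in vehicle and 201, 221 and 270.5 CPM in carmofur in U251P, a log2 fold change of -0.04 with a 95% confidence interval of -0.34 to 0.26, and the carmofur effect was 1.09 ± 0.24 (SE) larger on the log2 scale in U251T (interaction, adjusted p = 0.00311). CCN2 was at 527, 685 and 391 CPM in vehicle and 617, 600.4 and 445 CPM in carmofur in U251P, a log2 fold change of 0.09 with a 95% confidence interval of -0.25 to 0.42, and the carmofur effect was 1.07 ± 0.27 (SE) larger on the log2 scale in U251T (interaction, adjusted p = 0.0127). LAMB1 was at 117, 117 and 122 CPM in vehicle and 109.6, 149 and 134 CPM in carmofur in U251P, a log2 fold change of 0.17 with a 95% confidence interval of -0.10 to 0.44, and the carmofur effect was 0.82 ± 0.24 (SE) larger on the log2 scale in U251T (interaction, adjusted p = 0.0359). For these the U251P groups overlapped. LAMB1 lost its call in 8 of the 12 fits without 1 library (adjusted p up to 0.157; it kept it without U251P carmofur replicate 2, U251T vehicle replicate 1 or 3, or U251T carmofur replicate 3), and CCN2 without U251P vehicle replicate 2 (0.0826) or U251P carmofur replicate 3 (0.0505). COL8A1, HSPG2, COL5A2 and SPARC kept theirs in all 12. The other 43 members tested did not pass, and LUM and TIMP3 were not tested. Members with few counts in a line could hardly pass: COL3A1 and NID2 had 0 counts in all 6 U251P libraries, so this test says nothing about them, and the SE was 2.06 for BGN and 1.35 for DCN. For COL12A1 and the other members called in U251T, a difference between the lines is not shown.

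**Figure D4:**
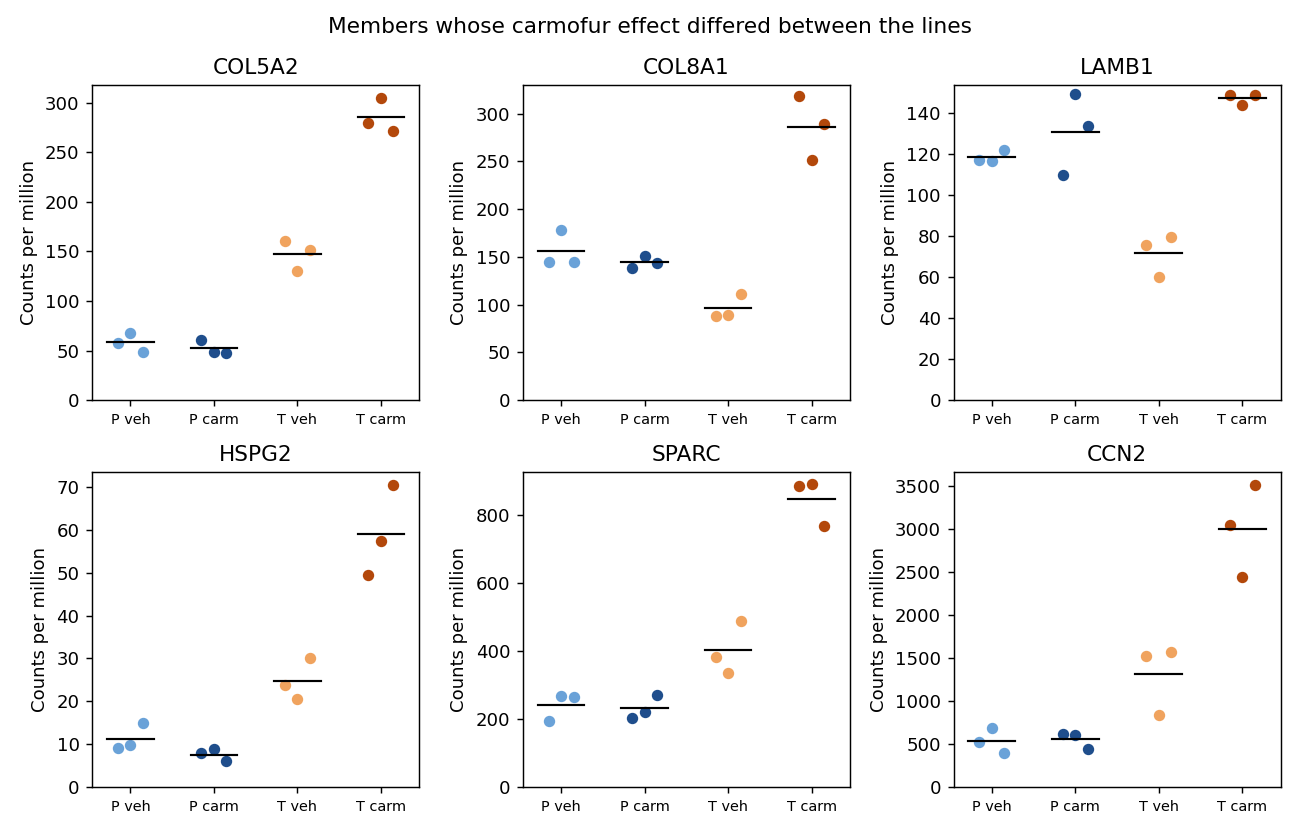
CPM in each library (points) and the group mean (line) of the 6 members with an adjusted p under 0.05 for the interaction of line and carmofur, in U251P (P) and U251T (T) with vehicle (veh) or carmofur (carm). In every panel the 3 U251T carmofur libraries lie above the 3 U251T vehicle libraries.

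Promoters were looked up for members that rose together with a different effect in the lines. RefSeq's table (GRCh38.p14) matched 39 of the 51 members by symbol, and of the 6 above it held LAMB1, HSPG2, SPARC and CCN2. The 250 bases before the start are shown for HSPG2 and CCN2, where at most 1 base lay in an exon of GENCODE release 29. Capitals mark GGAATG, the core bound by TEAD factors, TATAAA, and GGGCGG, the GC box bound by Sp1, each searched on both strands, where neighbouring matches may overlap. The HSPG2 window is chr1:21937311-21937560 on the minus strand, with 8 GC boxes and 82.8% G and C. The CCN2 window is chr6:131951373-131951622 on the minus strand, with 3 TEAD cores, 1 TATA match and 3 GC boxes.
HSPG2: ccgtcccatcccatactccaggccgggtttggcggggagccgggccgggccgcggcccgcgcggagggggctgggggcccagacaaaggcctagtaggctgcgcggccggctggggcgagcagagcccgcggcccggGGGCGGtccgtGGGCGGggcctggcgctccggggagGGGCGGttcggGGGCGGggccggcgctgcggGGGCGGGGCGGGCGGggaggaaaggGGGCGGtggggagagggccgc
CCN2: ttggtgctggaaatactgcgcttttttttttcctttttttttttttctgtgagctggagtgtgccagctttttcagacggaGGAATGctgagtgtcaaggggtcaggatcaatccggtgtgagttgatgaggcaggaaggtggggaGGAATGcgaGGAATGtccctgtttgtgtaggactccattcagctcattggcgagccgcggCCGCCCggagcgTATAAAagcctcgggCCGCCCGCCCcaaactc
Over all 35116 promoters of the table the same 250-base window held GGAATG in 11.9%, TATAAA in 10.7% and GGGCGG in 42.6%. Among the 39 members it held them in 6, 5 and 29. GGAATG was in COL12A1, FBN1, SPARC, THBS1, THBS2 and CCN2; the SPARC window lies wholly within an annotated exon. A match describes letters and not binding.

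Genes that act with the members were counted in the same fits, from lists of related pathways. The lists were also chosen with earlier results of these data known, so their counts are not independent of the data. Over all genes tested the shares to read their counts against are 39.3% higher and 47.6% lower between the lines, 8.88% higher and 8.20% lower with carmofur in U251T, and 1.80% larger and 2.49% smaller for the interaction. A listed gene that passed the filter through 1 line alone, or through carmofur or vehicle alone, had to differ. Nothing is read from the counts between the lines, and such genes named for carmofur (SDC2, MMP1 and NOTCH3) are a description with no p-value. No gene of any of these lists passed the test with carmofur in U251P, where MCAM, of the pericyte list, had the smallest unadjusted p (0.000623). Matrix receptors bind the members at the cell surface. The list had 6 genes higher and 15 lower in U251T of 23 tested between the lines (7 of them through 1 line alone), 8 higher and 0 lower of 17 with carmofur in U251T (1 through 1 group alone, median log2 fold change 0.64), and 4 with a larger and 0 with a smaller effect in U251T of 25 for the interaction. ITGAV, an integrin chain that binds fibronectin, was at 26.9, 27.7 and 51.2 CPM in vehicle and 86.6, 79.8 and 93.8 CPM in carmofur (log2 fold change 1.39 ± 0.25, adjusted p = 0.000641). SDC2, a syndecan, was at 9.23, 12.4 and 17.7 CPM in vehicle and 28.9, 45.4 and 31.3 CPM in carmofur (log2 fold change 1.52 ± 0.34). Both were above the vehicle range in every carmofur library. Regulators and targets of TGF-beta, which drives collagen genes in many cells, came next. This list had 12 genes higher and 6 lower in U251T of 21 tested between the lines (5 of them through 1 line alone), 5 higher and 0 lower of 18 with carmofur in U251T (2 through 1 group alone, median log2 fold change 0.27), and 3 with a larger and 0 with a smaller effect in U251T of 23 for the interaction. LTBP1, which holds latent TGF-beta in the matrix, was at 129, 75.2 and 178 CPM in vehicle and 275, 232 and 271 CPM in carmofur (log2 fold change 1.10 ± 0.22, adjusted p = 0.00157). SKI, a repressor of the pathway, had a log2 fold change of 0.69 ± 0.15, adjusted p = 0.00286.

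Other proteases and inhibitors of the matrix had 4 genes higher and 10 lower in U251T of 18 tested between the lines (7 of them through 1 line alone), 5 higher and 0 lower of 13 with carmofur in U251T (5 through 1 group alone, median log2 fold change 0.78), and 1 with a larger and 0 with a smaller effect in U251T of 21 for the interaction. MMP1, the interstitial collagenase, was at 3.08, 8.87 and 7.07 CPM in vehicle and 27.8, 77.9 and 23.5 CPM in carmofur (log2 fold change 2.74 ± 0.47). MMP16, a membrane-bound protease, had a log2 fold change of 1.00 ± 0.19, adjusted p = 0.00141. Collagens outside the 51 members had 3 genes higher and 9 lower in U251T of 12 tested between the lines (8 of them through 1 line alone), 2 higher and 0 lower of 8 with carmofur in U251T (3 through 1 group alone, median log2 fold change 0.93), and 2 with a larger and 0 with a smaller effect in U251T of 14 for the interaction. COL17A1, a transmembrane collagen, was at 56.9, 62.5 and 60.1 CPM in vehicle and 131, 150.2 and 109.5 CPM in carmofur (log2 fold change 1.13 ± 0.19, adjusted p = 0.000413). Other targets of YAP and TAZ, the factors that act through TEAD and to which CCN1 and CCN2 answer, had 5 genes higher and 8 lower in U251T of 17 tested between the lines (3 of them through 1 line alone), 3 higher and 0 lower of 14 with carmofur in U251T (2 through 1 group alone, median log2 fold change 0.39), and 1 with a larger and 0 with a smaller effect in U251T of 17 for the interaction. AMOTL1, a binding partner of YAP, was at 23.1, 16.7 and 47.7 CPM in vehicle and 86.6, 69.6 and 115 CPM in carmofur (log2 fold change 1.79 ± 0.31, adjusted p = 0.000482). Genes of collagen folding and export had 9 genes higher and 13 lower in U251T of 24 tested between the lines (14 of them through 1 line alone), 0 higher and 0 lower of 13 with carmofur in U251T (1 through 1 group alone, median log2 fold change 0.13), and 0 with a larger and 0 with a smaller effect in U251T of 25 for the interaction. The smallest p with carmofur in U251T on that list was that of CREB3L2 (0.60 ± 0.23, adjusted p = 0.0772). Genes of brain matrix and hyaluronan had 2 genes higher and 6 lower in U251T of 8 tested between the lines (7 of them through 1 line alone), 0 higher and 0 lower of 1 with carmofur in U251T (0 through 1 group alone, median log2 fold change -0.29), and 0 with a larger and 0 with a smaller effect in U251T of 8 for the interaction. HAS2, the hyaluronan synthase that was tested in U251T, had a log2 fold change of -0.29 ± 0.15, adjusted p = 0.222.

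Marker lists of other cell types were read beside the carmofur result in U251T, and their part in it was not tested. Of the 31 ubiquitous genes tested 4 fell, among them the tubulins TUBA1B (-1.0 ± 0.17, adjusted p = 0.000517) and TUBB (-0.97 ± 0.19, adjusted p = 0.00154), and 1 was higher. Of glioma and astrocyte markers 2 rose and 3 fell of 5: VIM (-0.67 ± 0.12, adjusted p = 0.000493) and GFAP (-0.96 ± 0.27, adjusted p = 0.0216) were lower, SOX9 and CD44 higher, and the list summed to 10228, 8188 and 9024 CPM. The pericyte and smooth muscle list had 2 of 4 higher, where 3 of the 4 reached the filter's level through 1 group alone, NOTCH3 (2.85 ± 0.35) and ACTA2 (1.11 ± 0.23, adjusted p = 0.00283), and summed to 70.7, 48.3 and 74.2 CPM in vehicle and 172, 132 and 164 CPM in carmofur, with ACTA2 the most abundant gene and KCNJ8 and ABCC9 at 0. The fibroblast list had 2 higher, COL3A1 and COL1A1, and 1 lower, TWIST1 (-0.52 ± 0.15, adjusted p = 0.0204), of 8, with THY1, PI16 and LUM at 0 and a sum of 3066, 3392 and 3018 CPM in carmofur. Endothelial, macrophage and microglia, neuronal and oligodendrocyte markers had 1 gene each with enough counts to be tested and epithelial markers 0, and none passed. Their sums in U251T vehicle and carmofur were 30, 22.7 and 30 and then 50.5, 21.3 and 60.0 CPM for endothelium, mostly FLT1, with CDH5, VWF, KDR, CLDN5 and EMCN at 0. For macrophages and microglia they were 20.0, 8.52 and 21.2 and then 18.6, 18.5 and 20.9 CPM, mostly CD68, with AIF1, CX3CR1, ITGAM, TYROBP, FCER1G and P2RY12 at 0. The epithelial list gave 20.0, 9.23 and 12.4 and then 16.5, 12.1 and 44.3 CPM with EPCAM at 0, the neuronal list 23.8, 3.55 and 15.9 and then 50.5, 22.3 and 46.9 CPM, with MAP2 the most abundant gene, and the oligodendrocyte list 22.3, 17.7 and 19.4 and then 21.7, 22.3 and 41.7 CPM, mostly PDGFRA, with OLIG1, OLIG2, MOG and SOX10 at 0.

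Some counts cannot be assigned to 1 gene with certainty. Whether counting used the strand is not stated, and 20 of the 51 members have a gene on the other strand that shares exon bases, among them LAMB1 with DLD, NID2 with RTRAF, HSPG2 with LDLRAD2, THBS1 with FSIP1 and LAMA5 with ADRM1. A further gene on the same strand shares exon bases with 6 members, including COL3A1, MMP2 and TIMP2. For 29 members neither is the case, COL1A1, COL5A2, COL6A3, COL8A1, COL12A1 and FBN1 among them. Intervals and floors cover counting error only.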

How the data were processed

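The count table deposited by the authors, with a column for each of 12 libraries, was used as given. The notes of the submitters name the human build hg38, and the annotation and the use of strand in counting are not given in the sources used here; symbols and biotypes came from GENCODE release 29. Counts of all genes were fitted in edgeR 4.0.16 (R 4.3.3; TMM, filterByExpr, quasi-likelihood test, Benjamini-Hochberg over all tested genes, threshold 0.05), each comparison on its own libraries and the interaction on all 12. DESeq2 1.42.0, other scalings and filters, thinned libraries, left-out gene classes, a replicate block and leaving out each library were tried. So were all 12 libraries in 1 fit and, between the lines, a test against a log2 fold change of 1. CPM used library totals. Summaries and figures were made in Python 3.11.15, and the code was tested on simulated data. Per role, the 2 members with the most counts and the 2 with the largest absolute log2 fold change among those called were named between the lines; for carmofur, members called or, with none, those with an unadjusted p under 0.05; for each list, the smallest p-values. The members and the lists (matrix receptors, TGF-beta pathway, proteases and inhibitors, other collagens, YAP and TAZ targets, collagen folding and export, brain matrix and hyaluronan, ubiquitous genes and markers of 8 cell types) were chosen with earlier results of these data known.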

Additional observations from a re-analysis of the deposited data

Results flagged for a closer look

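The carmofur effect differed between the lines for 6 of 49 members by the interaction test in edgeR, each larger in U251T than in U251P. Over all 13070 genes tested, 1.80% had a larger and 2.49% a smaller effect in U251T. The members were chosen with earlier results of these data known. LAMB1 lost its call in 8 of the 12 fits without 1 library, and CCN2 in 2. The interaction, a difference of log2 fold changes, was 1.03 for COL5A2, 1.60 for COL8A1, 0.82 for LAMB1, 1.74 for HSPG2, 1.09 for SPARC and 1.07 for CCN2. These values rest on the U251T libraries, whose makeup differed from that of the U251P libraries, and the part of that makeup in them was not tested.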

How the results depend on the processing

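Between the lines, all 47 members called fell to 22, 13 higher and 9 lower, with at least 10 counts asked of every library, where 26 members were tested. THBS1 turned from 0.32 to -0.05 with no filter (adjusted p = 0.784) and to -0.31 with that stricter filter (adjusted p = 0.0347); the cause was not tested. Leaving out 1 library gave 45 to 47 members called there, 0 in U251P, 13 to 18 in U251T and 4 to 6 for the interaction. In U251P, no filter gave 1 member, THBS1, and 19 of 24349 genes. The interaction had 10 members, all larger in U251T, with the replicate number as a block; the numbers were not taken as pairs, since the labels name no pairing and libraries did not all correlate best with that of their own number. The correlation across genes (genes are not independent replicates) of deviations from the group mean between libraries of the same number was -0.04, 0.012 and 0.014 between the lines, 0.214, -0.033 and 0.269 in U251P and 0.085, 0.342 and 0.082 in U251T. Of all genes, 10474 of 12047 tested were called between the lines, against 3737 of 4823 with the stricter filter and 6117 of 7435 with thinned libraries. In the fits with the block, in which the filter also passed more genes, 2140 of 7683 genes were called for carmofur in U251T against 1231 of 7204, and 1154 of 13604 for the interaction against 560 of 13070; without U251T carmofur replicate 1 the interaction had 367. DESeq2, with its size factors, called 15 of 50 members in U251T, against 859 of 17843 genes. For the interaction it called 7 of 50 members, against 768 of 28174 genes, 384 larger and 384 smaller. Over the other alternatives 463 of 490 values between the lines, 155 of 170 in U251T and 48 of 48 for the interaction kept direction and side of the threshold. Those between the lines include a test against a log2 fold change of 1, which called 36 of 47 members and 8238 of 12047 genes. With library size alone the median of the gene-wise shifts in the interaction was 0.11. That fit had 333 genes with a larger and 297 with a smaller effect in U251T, against 235 and 325 in the main fit. Leaving out processed pseudogenes, and thinning in U251T, were chosen after seeing the data. In U251T 16 members had too few counts to be tested.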
